A study of Mus musculus with 6 samples.

Results

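A set of 10 genes of ion, water and solute transport in the choroid plexus was followed on cerebellar arrays of 2 genotypes, wild type and daDREAM. They are Aqp1, Kcne2, Kcnj13, Clic6, Slc13a4, Slc12a2, Slc4a5, Car14, Cldn2 and Stra6. The members are all probe sets that the platform annotation gives exactly 1 of these 10 symbols, which makes 14 of the 45037 probe sets tested. They cover all 10 of the genes, of 18193 with such a probe set. The 10 genes were chosen by name after a difference between the genotypes had been seen on these arrays in other choroid plexus markers, so the contrast between genotypes is given here as a description, with no test of the members. Slc12a2 has 3 probe sets, Clic6 and Cldn2 have 2 each, and the other genes have 1.

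RNA came from dissected, frozen cerebellum of 3 wild-type mice and 3 daDREAM transgenic mice, 1 GeneChip Mouse Genome 430 2.0 array for each, described by the submitters as independent biological replicates. DREAM, the product of Kcnip3, is a calcium-sensing transcriptional repressor that also associates with potassium channels. The daDREAM mutant keeps repressing whether or not calcium is bound. The strain, age and sex of the mice, the promoter of the transgene and the number of transgenic lines are not stated in the labels used. Values are RMA values, which are log2 intensities of a probe set after background correction and quantile normalization. The distributions still differed between arrays. The interquartile range was 3.27, 3.38 and 3.1 in wild type and 3.49, 3.15 and 2.97 in daDREAM (replicates 1, 2 and 3). The median was 5.14, 5.12 and 5.21 in wild type and 5.13, 5.19 and 5.23 in daDREAM. Renewed quantile normalization is among the alternatives given below.

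The choroid plexus is a sheet of epithelial cells in the ventricles, including the fourth ventricle next to the cerebellum, and it secretes cerebrospinal fluid. Sodium, chloride and bicarbonate cross the epithelium through transporters, carbonic anhydrases supply bicarbonate, potassium channels recycle potassium, and water follows through aquaporins and the junctions. A cerebellar dissection can hold more or less of this tissue, and in bulk RNA more cells of a type and more RNA per cell cannot be told apart. Ttr, the transthyretin carrier that defines choroid plexus RNA, read 12.47 ± 0.22 over the 3 wild-type arrays and 12.90 ± 0.10 over the 3 daDREAM arrays (log2 level ± SD). Its signal shows that choroid plexus RNA was on the arrays of both genotypes. Slc12a2 is also expressed in glia, endothelium and neurons, so its signal in cerebellum does not come from choroid plexus alone.

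DREAM binds the downstream regulatory element, whose core letters are GTCA, and Otx2, a transcription factor of choroid plexus development, binds TAATCC. The 250 bases before annotated transcription starts were read from RefSeq (GRCm38.p6) and searched for both motifs on both strands. The search covered 12 such windows for 8 of the 10 genes. No window was available for Clic6, and the chromosome of Slc12a2 was left out of the member windows. GTCA or its reverse complement TGAC was present in 9 of the 12 windows, against 80.2% of all 32817 windows. Stra6 and Kcne2 gave more than 1 window each, and by gene 5 of the 8 had a match. TAATCC or its reverse complement GGATTA was present in 1 of the 12, that of Car14, against 6.25% of all windows. The 4 sequences below are shown because Aqp1 and Slc13a4 were members whose genotypes did not overlap, Kcnj13 had the widest difference among the other genes with a window, and the first Kcne2 window held the most GTCA matches. Each runs 5′ to 3′ along the gene, and capitals mark GTCA or TGAC.

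Aqp1, chr6:55336049-55336298, plus strand: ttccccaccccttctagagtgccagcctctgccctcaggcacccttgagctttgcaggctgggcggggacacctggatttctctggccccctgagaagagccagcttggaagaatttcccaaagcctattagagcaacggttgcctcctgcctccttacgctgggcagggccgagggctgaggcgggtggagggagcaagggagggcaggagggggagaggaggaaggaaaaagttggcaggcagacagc
Slc13a4, chr6:35308127-35308376, minus strand: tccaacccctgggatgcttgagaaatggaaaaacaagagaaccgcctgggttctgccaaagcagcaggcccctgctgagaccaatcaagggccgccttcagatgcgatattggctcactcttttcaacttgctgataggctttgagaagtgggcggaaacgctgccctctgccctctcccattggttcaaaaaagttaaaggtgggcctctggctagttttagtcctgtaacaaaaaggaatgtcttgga
Kcnj13, chr1:87394730-87394979, minus strand: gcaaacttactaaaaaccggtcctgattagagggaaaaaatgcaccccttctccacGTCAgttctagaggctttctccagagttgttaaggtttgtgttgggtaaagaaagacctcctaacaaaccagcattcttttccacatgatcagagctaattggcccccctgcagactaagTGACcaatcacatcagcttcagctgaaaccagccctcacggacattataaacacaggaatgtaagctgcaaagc
Kcne2, chr16:92292139-92292388, plus strand: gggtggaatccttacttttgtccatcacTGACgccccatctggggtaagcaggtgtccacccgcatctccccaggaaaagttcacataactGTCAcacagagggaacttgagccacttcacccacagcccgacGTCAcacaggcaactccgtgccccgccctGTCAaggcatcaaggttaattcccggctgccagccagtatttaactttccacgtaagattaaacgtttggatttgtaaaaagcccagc

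Neither motif was found in the Aqp1, Slc13a4 or Slc4a5 windows. Bases after the transcription start were not searched, so the windows say nothing of matches there. The Kcnj13 window held 2 GTCA matches, starting 194 and 74 bases before the start, and the Kcne2 window held 4, starting 222, 159, 117 and 88 bases before it. A match of 4 letters is present in most promoters and describes the letters only.

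As a group, 10 of the 14 probe sets had a higher mean in daDREAM and 4 a lower one, where 51.8% of all probe sets were higher. The median difference, daDREAM minus wild type, was 0.15 log2 units or 1.11-fold for the members and 0.01 for all probe sets. The 3 daDREAM arrays lay above all 3 wild-type arrays at 3 of the 14 probe sets, those of Aqp1, Slc13a4 and 1 of Clic6, against 3.75% of all probe sets. At 0 of the 14 did they lie below all 3, against 2.26% of all probe sets. In the fit over all probe sets 0 of 45037 were called, or 0%, at a limma adjusted p under 0.05, and 817 had an unadjusted p under 0.05. A trended and robust variance prior also called 0. Array weights estimated gene by gene called 7510 of the 45037 probe sets and 9 of the 14 members. The weight was 4.66 for daDREAM replicate 2 and 0.24 for daDREAM replicate 1. At 11 of 14 probe sets the range over the 3 wild-type arrays alone was wider than the difference between genotypes.

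**Figure D1:**
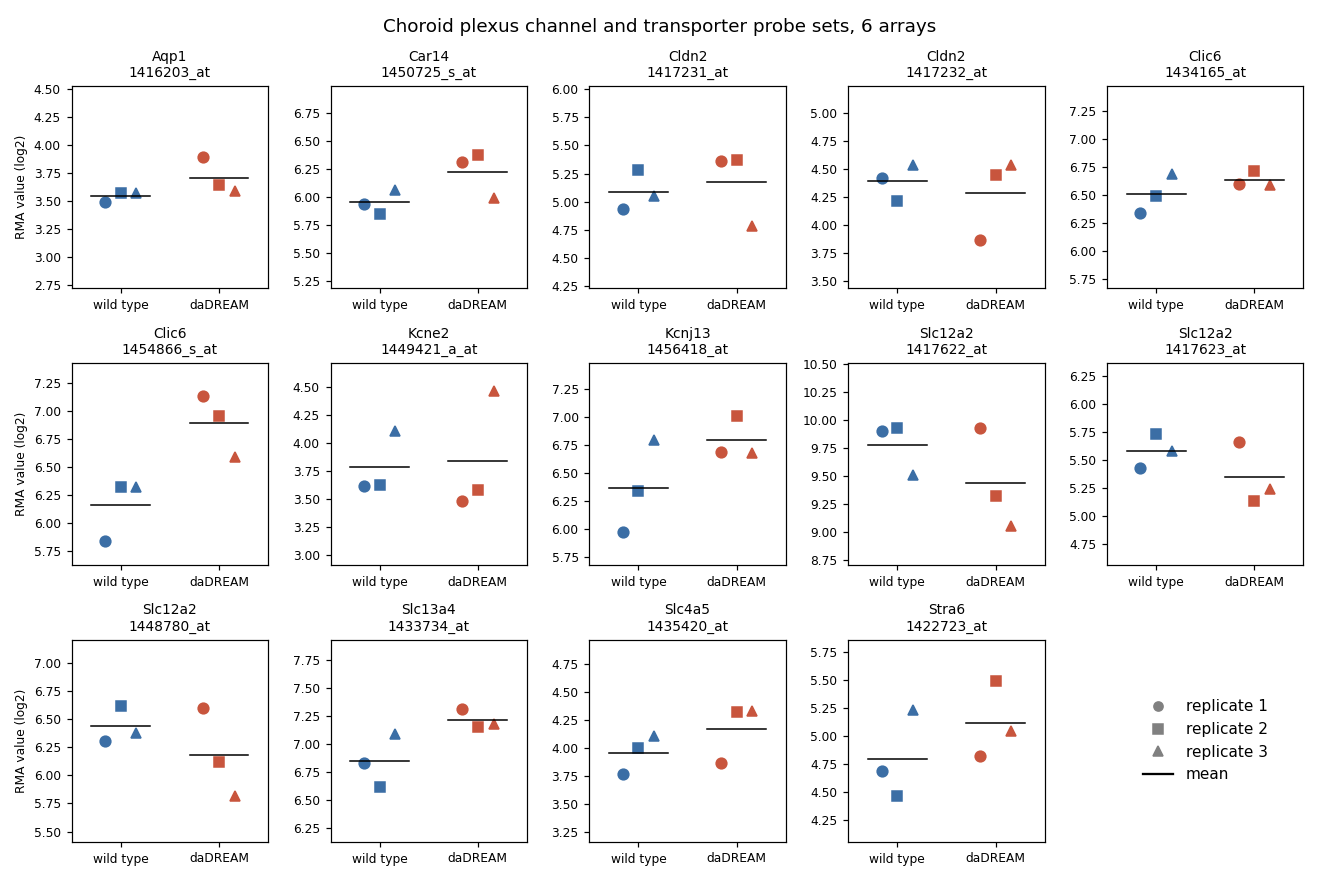
RMA value (log2) of each of the 14 probe sets on the 6 arrays, wild type in blue and daDREAM in red, with a mark for each replicate and a line at the mean of 3. Every panel spans the same 1.8 log2 units, and the genotypes separate in the Aqp1, Slc13a4 and 1454866_s_at Clic6 panels, while the 3 Slc12a2 panels run downward.

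Among the channels, Clic6 and Kcnj13 had the widest differences, and Kcne2 had almost none. Clic6 encodes a member of the chloride intracellular channel family. Its probe set 1454866_s_at read 5.84, 6.32 and 6.32 in wild type and 7.13, 6.95 and 6.59 in daDREAM. All 3 daDREAM arrays were above all 3 wild-type arrays. The difference was 0.73 ± 0.19 log2 units (SE, 3 against 3), or 1.66-fold, and 12 of the 45037 probe sets, itself included, were at least as far above 0. The other Clic6 probe set, 1434165_at, read 6.34, 6.49 and 6.69 in wild type and 6.60, 6.72 and 6.59 in daDREAM, a difference of 0.13 ± 0.13. Here wild-type replicate 3 was above 2 of the 3 daDREAM arrays. That difference was 0.05 without wild-type replicate 1 and 0.22 without wild-type replicate 3.

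The 2 Clic6 probe sets gave differences of unequal size. Taken array by array, 1454866_s_at minus 1434165_at was -0.50, -0.17 and -0.37 in wild type and 0.53, 0.23 and 0.00 in daDREAM. The gap was -0.35 ± 0.17 in wild type and 0.25 ± 0.27 in daDREAM (SD, n = 3). The suffix _s_at marks a probe set that can match transcripts of more than 1 gene, and the platform annotation cites the same source sequence for both. Whether they detect different transcripts was not tested.

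Kcnj13 encodes Kir7.1, an inwardly rectifying potassium channel of the apical membrane of choroid plexus epithelium. It read 5.97, 6.34 and 6.79 in wild type and 6.69, 7.01 and 6.68 in daDREAM. Wild-type replicates 1 and 2 were the lowest of the 6 arrays and wild-type replicate 3 lay among the daDREAM arrays, so the genotypes overlapped. The difference was 0.43 ± 0.21 (SE), or 1.34-fold. The range over the 3 wild-type arrays was 0.82, wider than that difference. Without wild-type replicate 1 the difference was 0.23, and without wild-type replicate 3 it was 0.64.

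Kcne2 encodes a small single-pass subunit that joins potassium channel pores such as Kcnq1 in this epithelium. It read 3.62, 3.63 and 4.11 in wild type and 3.48, 3.58 and 4.46 in daDREAM. Replicate 3 was the highest array in both genotypes, and the difference of 0.05 ± 0.27 (SE) was smaller than either group's spread. Its sign changed in 5 alternatives, so no direction can be given for it. Its mean was at or above that of 23.8% of all probe sets, near the dim end, though a probe set's level also depends on its probes and is no measure of abundance.

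Aqp1 is the water channel of the apical membrane. It read 3.49, 3.57 and 3.57 in wild type and 3.89, 3.64 and 3.59 in daDREAM. The genotypes did not overlap, but the lowest daDREAM array exceeded the highest wild-type array only in the second decimal, and daDREAM replicate 1 alone stood apart. The difference was 0.16 ± 0.13 (SE), or 1.12-fold, and 14.9% of all probe sets were at least as far above 0. Without daDREAM replicate 1 it was 0.07. This probe set was dim as well, at or above 18.6% of all probe sets.

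Among the anion and cation carriers, Slc13a4 was higher in daDREAM and Slc12a2 was lower. Slc13a4, a sodium-sulfate cotransporter, read 6.83, 6.62 and 7.09 in wild type and 7.31, 7.15 and 7.18 in daDREAM. The genotypes did not overlap, with wild-type replicate 3 just below the lowest daDREAM array. The difference was 0.37 ± 0.15 (SE), or 1.29-fold. Leaving out wild-type replicate 2 gave 0.25 and leaving out wild-type replicate 3 gave 0.49. Its sign held in every alternative that could change a difference.

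Slc12a2 encodes NKCC1, the sodium-potassium-chloride cotransporter of the apical membrane, and it was the 1 gene of the 10 with all probe sets lower in daDREAM. Probe set 1417622_at read 9.90, 9.93 and 9.51 in wild type and 9.93, 9.32 and 9.05 in daDREAM. Probe set 1448780_at read 6.31, 6.62 and 6.38 in wild type and 6.60, 6.12 and 5.82 in daDREAM. In both, daDREAM replicate 1 stood with the wild-type arrays and daDREAM replicates 2 and 3 lay below all 3 of them. Probe set 1417623_at read 5.43, 5.73 and 5.58 in wild type and 5.66, 5.13 and 5.24 in daDREAM, with the same division.

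The Slc12a2 differences were -0.35 ± 0.23, -0.26 ± 0.20 and -0.24 ± 0.17 (SE), in the order just given. The genotypes overlapped at all 3 probe sets. The platform annotation cites 1 source sequence for the 3, and over the 6 arrays their lowest pairwise Pearson r was 0.782. They were therefore not counted as independent measurements of the gene. Without daDREAM replicate 1 the difference of 1417622_at was -0.59, and without daDREAM replicate 3 it was -0.15. That of 1448780_at was -0.47 and -0.08 in the same runs. That of 1417623_at was -0.40 without daDREAM replicate 1 and -0.13 without daDREAM replicate 2.

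Slc4a5, an electrogenic sodium-bicarbonate cotransporter, read 3.77, 4.00 and 4.11 in wild type and 3.87, 4.32 and 4.33 in daDREAM. Replicates 2 and 3 of daDREAM were the highest arrays and daDREAM replicate 1 was the second lowest. The difference was 0.21 ± 0.17 (SE) at a probe set at or above 30.1% of all. It was 0.12 without wild-type replicate 1 and 0.36 without daDREAM replicate 1. Car14, a membrane-bound carbonic anhydrase, read 5.94, 5.85 and 6.06 in wild type and 6.31, 6.37 and 5.99 in daDREAM. Replicates 1 and 2 of daDREAM lay above all wild-type arrays, and daDREAM replicate 3 lay below wild-type replicate 3. The difference was 0.27 ± 0.14 (SE), or 1.21-fold, and its sign held in every alternative that could change a difference. The only Car14 probe set, 1450725_s_at, also has the suffix of probe sets that can match transcripts of more than 1 gene.

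Cldn2, a pore-forming claudin that lets cations and water pass the junction, gave opposite signs at its 2 probe sets. Probe set 1417231_at read 4.93, 5.28 and 5.05 in wild type and 5.36, 5.37 and 4.78 in daDREAM, a difference of 0.08 ± 0.19 (SE). Probe set 1417232_at read 4.42, 4.22 and 4.54 in wild type and 3.87, 4.45 and 4.54 in daDREAM, a difference of -0.11 ± 0.19. The highest and the lowest array of the first probe set were both daDREAM arrays, and so was the lowest of the second. Leaving out each array in turn gave -0.02 to 0.28 for the first and -0.23 to 0.10 for the second. Over the 6 arrays the pair had a Pearson r of -0.635, so no direction can be given for Cldn2.

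Stra6, the membrane receptor through which retinol enters cells from its binding protein, read 4.69, 4.47 and 5.23 in wild type and 4.82, 5.49 and 5.05 in daDREAM. Wild-type replicate 3 was the second highest of the 6 arrays, so the genotypes overlapped. The difference was 0.32 ± 0.24 (SE), or 1.25-fold, and it ran from 0.14 without daDREAM replicate 2 to 0.54 without wild-type replicate 3.

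**Figure D2:**
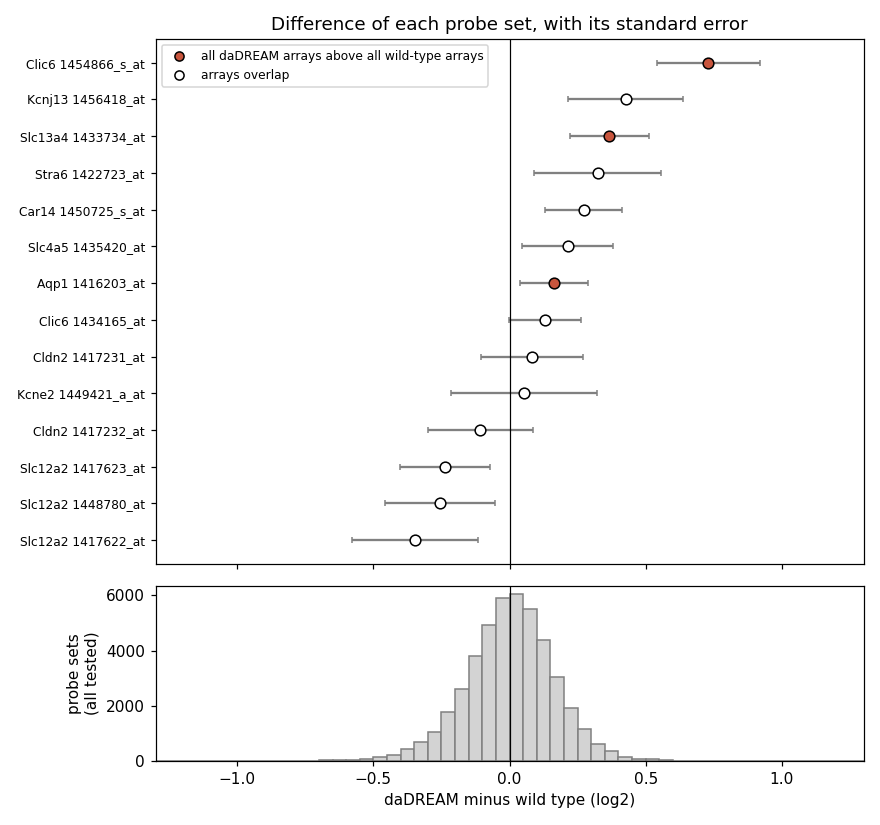
Difference of each of the 14 probe sets, daDREAM minus wild type in log2 units, with the standard error of the fit as a bar (top), above the distribution of the difference over all 45037 probe sets (bottom). Filled points are the 3 probe sets whose genotypes did not overlap. The points run from 0.73 for a Clic6 probe set to -0.35 for an Slc12a2 probe set, and the distribution of all probe sets is centred at 0.01.

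The members did not move as 1 block over the 6 arrays. With the probe set of highest mean for each gene, 33 of the 45 pairs of genes had a Pearson r above 0, with a median of 0.353 (6 arrays, which share the genotype difference and array effects). Kcnj13 and Clic6 followed the mean of the other 9 genes most closely, at r of 0.959 and 0.949. Slc12a2 ran against it at -0.701, Kcne2 was at -0.141 and Cldn2 at 0.194.

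Averaged over the 9 genes other than Slc12a2, each centred on its mean, the arrays stood at -0.25, -0.18 and 0.09 in wild type and 0.05, 0.20 and 0.09 in daDREAM. Slc12a2 was left out of this average after its values had been seen. The means of the genotypes differed by 0.23. Wild-type replicates 3 and 1 differed from each other by 0.35, which is more than the genotypes did. Wild-type replicate 3 stood above daDREAM replicates 1 and 3, and wild-type replicates 1 and 2 were the lowest of the 6 arrays.

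The 6 arrays also differed in controls that carry no mouse RNA. The mean of 18 hybridization control probe sets, which read labelled RNA added in the hybridization mix, was 8.99, 8.99 and 9.48 in wild type and 9.47, 10.14 and 10.47 in daDREAM. Slc12a2 ran in the opposite sense, since the arrays with the highest control level, daDREAM replicates 2 and 3, had the lowest Slc12a2 values. With the control level as a covariate, the 3 Slc12a2 differences were 0.41, 0.29 and 0.08 in place of -0.35, -0.26 and -0.24. Stra6 and Slc4a5 then stood at -0.17 and -0.21, Kcne2 at -0.72 and Kcnj13 at 0.12, against 0.43 without the covariate. The Clic6 probe sets stood at 0.96 for 1454866_s_at and 0.0044 for 1434165_at, the Cldn2 probe sets at 0.43 and -0.66, Aqp1 at 0.35, Car14 at 0.38 and Slc13a4 at 0.31. The level partly follows genotype on 6 arrays, so such a fit cannot cleanly divide them. The 18S ribosomal probe set at the transcript's 3′ end ranged from 6.88 to 9.14 in wild type and from 8.97 to 9.49 in daDREAM, and its part in these differences was not tested.

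**Figure D3:**
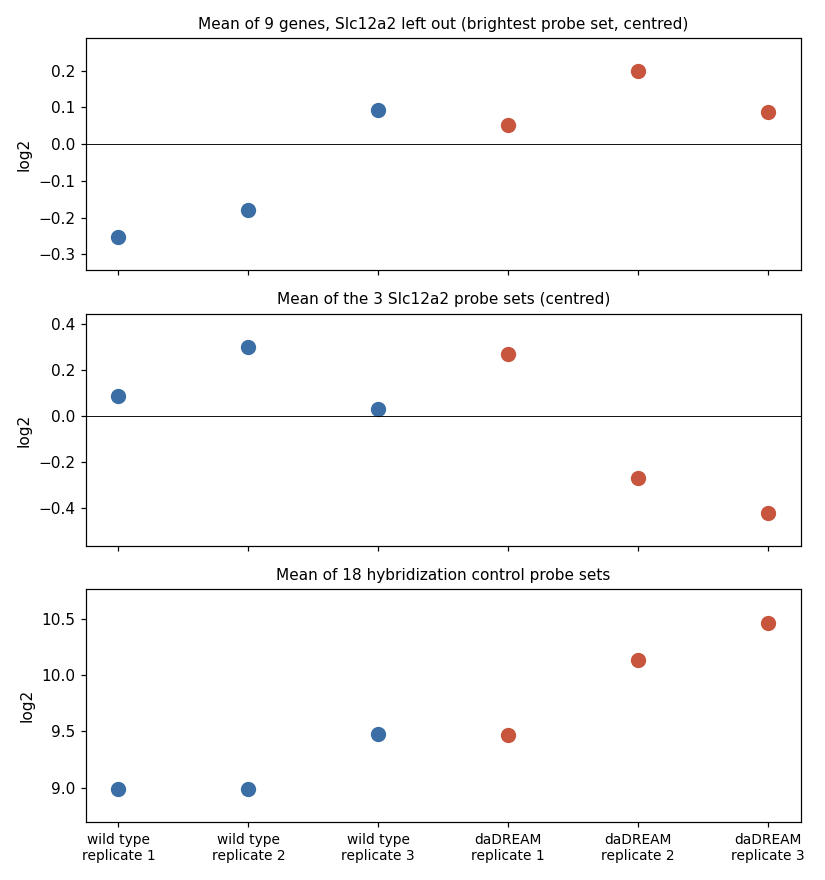
Level on each array (log2), wild type in blue and daDREAM in red, of 9 genes averaged without Slc12a2 (top), of the 3 Slc12a2 probe sets (middle) and of the hybridization controls (bottom). In the top panel wild-type replicate 3 stands among the daDREAM arrays, and in the middle panel daDREAM replicate 1 stands among the wild-type arrays.

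**Figure D4:**
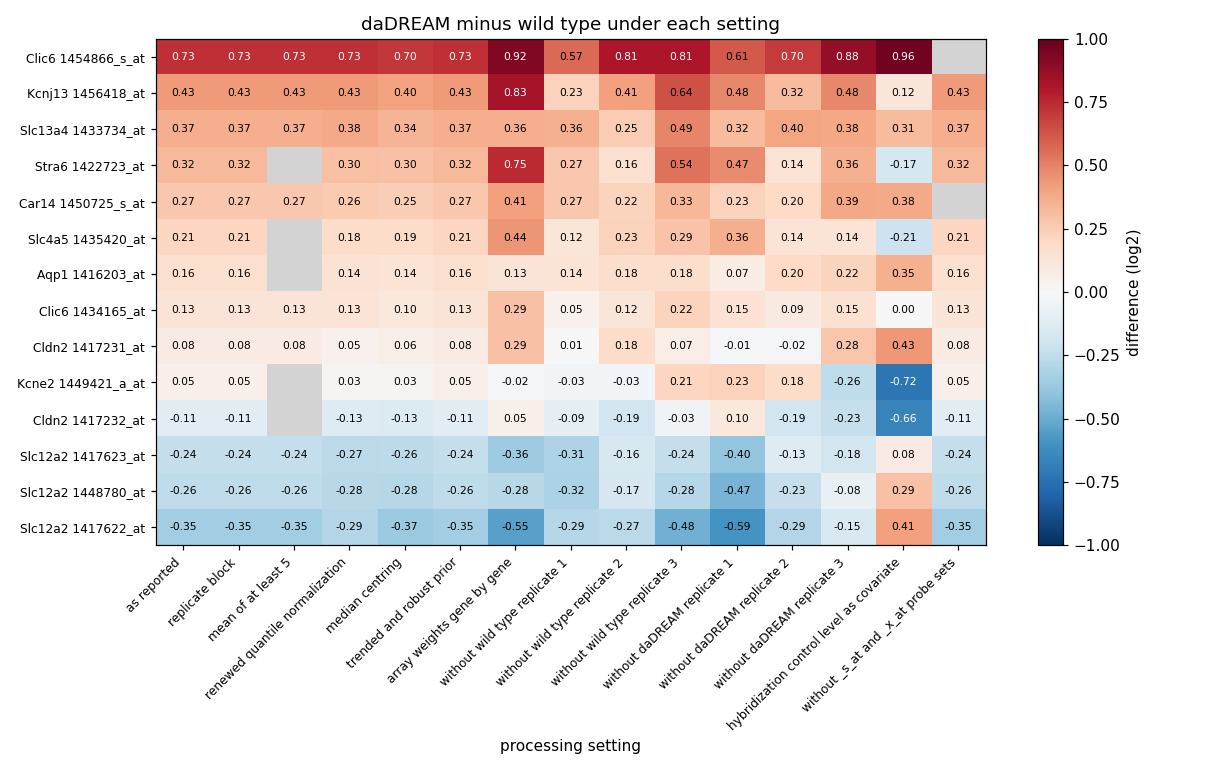
Difference of each of the 14 probe sets (rows, daDREAM minus wild type, log2, printed in each cell and coloured from blue below 0 to red above) under the reported setting and 14 alternatives (columns), with grey where a probe set was left out. The top rows of Clic6, Kcnj13 and Slc13a4 stay above 0 throughout, and the Slc12a2 rows turn from negative to positive in the column of the hybridization control covariate.

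Other genes of choroid plexus ion and fluid transport were listed from their known roles. Of 35 listed genes 28 were measured by a probe set with 1 symbol, and 14 of them had a higher and 14 a lower daDREAM mean, with a median difference of -0.00. By the same rule of 1 probe set per gene, 9 of the 10 members were higher, with a median of 0.19. The 9 include Kcne2 and Cldn2, for which no direction can be given. With the mean of each gene's probe sets, 8 of the 10 were higher, with a median of 0.24. The difference between both groups of genes was not tested. At none of the 28 were the genotypes without overlap, where 3.75% of all probe sets lay wholly above wild type and 2.26% wholly below. The highest difference was that of Slc12a4, a potassium-chloride cotransporter, at 0.18 ± 0.15 (SE). Atp1b1, a beta subunit of the sodium pump, differed by 0.02 and Slc4a2, an anion exchanger, by 0.17. Slc4a10, a sodium-coupled bicarbonate transporter, differed by 0.01 and Car2, the cytosolic carbonic anhydrase, by -0.04. Many of these genes are also expressed in neurons and glia of the cerebellum.

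The lowest of the 28 was Slc5a3, a sodium-myo-inositol cotransporter that can associate with Kcnq1 and Kcne2. It read 8.37, 8.33 and 7.81 in wild type and 8.24, 7.39 and 7.45 in daDREAM, a difference of -0.48 ± 0.25 (SE). As with Slc12a2, daDREAM replicate 1 stood with the wild-type arrays and daDREAM replicates 2 and 3 were lowest. Kcnq1, the pore partner of Kcne2, differed by 0.04 ± 0.20. Stk39 and Oxsr1, kinases that activate Slc12a2, differed by -0.08 ± 0.15 and -0.16 ± 0.17 (SE). Wnk1, which acts upstream of both, differed by -0.17 ± 0.17. The genotypes overlapped at each of these kinases, and daDREAM replicate 1 was the highest array for Stk39 and Wnk1.

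Junction genes other than Cldn2 were measured at 8 of 9 listed, with 5 higher, 3 lower and a median of 0.12. Cldn3 was the highest at 0.45 ± 0.34 and Cldn11 the lowest at -0.25 ± 0.20 (SE). At none of the 8 were the genotypes without overlap, where 3.75% of all probe sets lay wholly higher and 2.26% wholly lower. Of the retinoid handling genes that accompany Stra6, 9 of 10 were measured, with 4 higher, 5 lower and a median of -0.04. Ttr, which carries retinol-binding protein in plasma, was the highest at 0.43 and the 1 gene of the 9 without overlap, and Rdh10, a retinol dehydrogenase, the lowest at -0.16. Rbp4, the ligand-carrying partner of Stra6, differed by -0.06.

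Secreted and carrier genes of the same epithelium had 17 of 20 measured genes higher, with a median of 0.30. At 9 of the 20 the daDREAM arrays all lay above wild type, against 3.75% of all probe sets. The array means of these genes were 6.32 to 6.50 in wild type and 6.59 to 6.85 in daDREAM. The differences ran from Sostdc1 at 1.07 to Steap1 at -0.18. Some of these values were known when the transporters were chosen, so they do not support the transporters' direction.

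**Figure D5:**
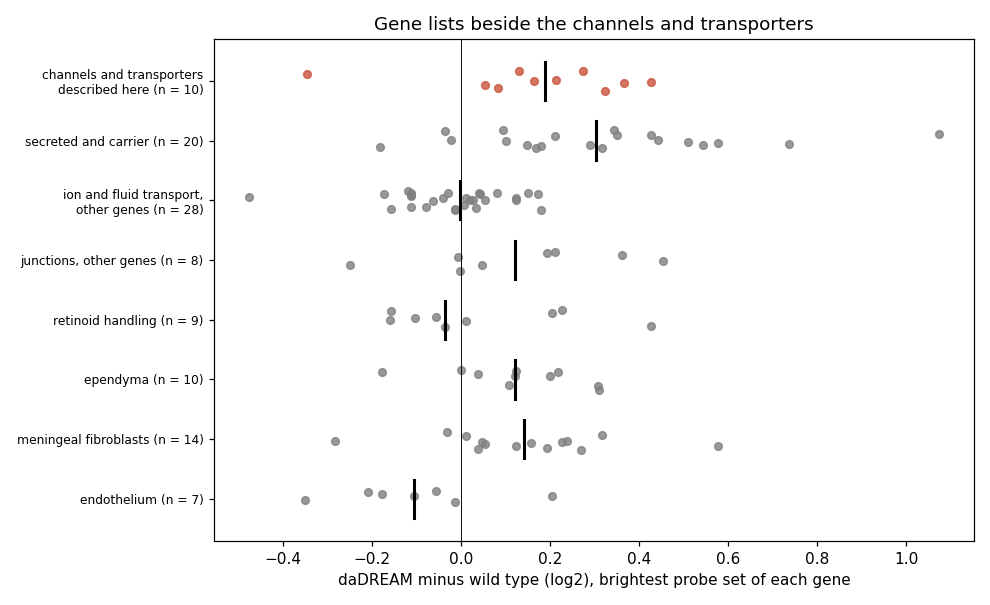
Difference of each gene, daDREAM minus wild type in log2 units at the gene's probe set with the highest mean, for the 10 genes described here (red) and 7 further lists (grey), with a bar at each median. The secreted and carrier genes centre at 0.30 and the other ion and fluid transport genes at -0.00. The red point at -0.35 is Slc12a2.

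Markers of the neighbouring cell types had these values, and their part in the members' differences was not tested. Over all probe sets 51.8% were higher in daDREAM, 3.75% lay wholly higher and 2.26% wholly lower. Ependymal markers had 8 of 10 higher, with array means of 5.09 to 5.19 in wild type and 5.12 to 5.38 in daDREAM. At 3 of the 10, Foxj1, Rarres2 and Dynlrb2, the daDREAM arrays all lay above wild type. Foxj1 was the highest at 0.31 and Dnah11 the lowest at -0.18. Meningeal fibroblast markers had 12 of 14 higher, with array means of 6.73 to 6.78 and 6.84 to 6.95, from Igfbp2 at 0.58 to Foxc1 at -0.28. These means did not overlap between genotypes, 4 of the 14 genes (Igf2, Igfbp2, Slc6a13 and Slc22a6) lay wholly higher in daDREAM, and Igf2 and Igfbp2 stand in the secreted and carrier list too. Endothelial markers had 6 of 7 lower, at 7.04 to 7.23 and 6.92 to 7.15, from Slc2a1 at 0.20 to Flt1 at -0.35, and Flt1 alone of the 7 lay wholly lower in daDREAM. Oligodendrocyte markers stood at 10.12 to 10.33 and 10.13 to 10.34, with 2 of 5 higher, from Mag at 0.10 to Mog at -0.13, and Mbp alone of the 5 lay wholly higher in daDREAM. Blood markers stood at 5.603 to 6.002 and 5.528 to 5.948, with 2 of 4 higher, from Hba-a2 at 0.29 to Alas2 at -0.24. Markers of cerebellar neurons and Bergmann glia had 2 of 8 higher, at 11.49 to 11.64 and 11.51 to 11.60, from Slc1a3 at 0.09 to Car8 at -0.11.

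The genes most like the 10 in pattern were sought among 5832 other genes with a mean of at least 5 and a range over the 6 arrays of at least 0.5 log2 units. The 8 with the highest Pearson r to the mean profile were Arhgap44 (0.970), Klf5 (0.969), Pnpla2 (0.967), Serpina3n (0.965), Chil1 (0.962), Sema3g (0.960), Ace (0.953) and Zfp512b (0.945), over 6 arrays that share genotype and array effects. Of these 1, Ace, stands in the choroid plexus lists. It encodes angiotensin-converting enzyme and read 6.74, 6.82 and 7.03 in wild type and 7.16, 7.36 and 7.10 in daDREAM, a difference of 0.34 without overlap. Arhgap44, a GTPase-activating protein gene, read 9.78, 9.75 and 10.17 in wild type and 10.14, 10.34 and 10.04 in daDREAM. In Arhgap44, as in the members' mean, wild-type replicate 3 stood among the daDREAM arrays. In all, 26 of the 5832 genes had an r above 0.9.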

How the data were processed

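The deposited table of the authors holds log2 values for each probe set on each array, made with RMA in the affy package per the submitters' processing notes (versions not given in the sources used here). With 2 decimals and without detection calls, dim probe sets could not be told from background, and quantile normalization hides a shift common to most genes. Of 45101 probe sets, 64 controls were left out and 45037 tested. The platform annotation gives 34945 of these 1 symbol, 932 several and 9160 none.

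Differences are daDREAM minus wild type, by the lmFit and eBayes functions of limma 3.58.1 under R 4.3.3 (2-sided, with Benjamini-Hochberg adjustment over all 45037 probe sets, threshold 0.05), with no covariate. Precision is limited by having 3 arrays a genotype, with a median standard error of 0.15. The fit was tested on simulated data with independent noise at each probe set, which holds no effect shared across an array. The members and all lists were chosen with earlier results of these data known. Each list is described by its counts, its median, and its highest and lowest gene, at the probe set with the highest mean. The genes most like the members were taken by the rule on r, mean and range given with them. Further genes were named once their values were known. Groups and replicate numbers came from the sample titles. Arrays correlated at 0.973 to 0.997, and at most 2.80% of values were identical between any 2. Alternatives were the replicate block, a minimum mean of 5, median centring, renewed quantile normalization, a trended and robust prior, array weights, each array left out, the hybridization control level as a covariate, probe sets without _s_at and _x_at, and 1 value per gene.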

Additional observations from a re-analysis of the deposited data

How the results depend on the processing

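The replicate block, the trended and robust prior and the settings that only drop probe sets cannot change a probe set's difference. The median difference of the member probe sets kept its sign in all alternatives that were run. It was 0.0825 to 0.2183 when 1 array was left out, the lowest without wild-type replicate 1 and the highest without wild-type replicate 3. With 9 to 10 of the 14 probe sets higher in those 6 runs, the count moved little. Array weights estimated gene by gene gave daDREAM replicate 2 a weight of 4.66 and daDREAM replicate 1 a weight of 0.24. They raised the median to 0.2932. With them 7510 of the 45037 probe sets and 9 of the 14 members were called, against 0 otherwise, and the cause was not tested. With a minimum mean of 5, only 9 member probe sets were measured and 6 were higher. Same-numbered arrays deviated from their genotype means with correlations of 0.119, -0.281 and 0.323 across probe sets, so the numbers were not taken as pairs. With the replicate block the median was 0.1467 and 0 probe sets were called. Without the 3 Slc12a2 probe sets, an alternative chosen after seeing the data, it was 0.2133 with 10 of 11 higher. Renewed quantile normalization gave 0.1381 and median centring 0.12, each with 10 of 14 higher. The signs of Aqp1, Slc13a4, Car14, Kcnj13 and both Clic6 probe sets held in the alternatives that measured them and could change them. The sign changed in 5 alternatives for Kcne2, in 2 for each Cldn2 probe set and in 1, the hybridization control covariate, for Stra6, Slc4a5 and each Slc12a2 probe set. Without daDREAM replicate 1, 7254 probe sets had an unadjusted p under 0.05 and 0 were called.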
